A study of Homo sapiens with 6 samples.

Results

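A set of 41 genes for ribosome biogenesis and nucleolar factors was followed through the 6 RNA-seq libraries of the study. The genes were taken by symbol, and all 41 were found both among the 41471 gene symbols counted in the CDK16 knockdown experiment and among the 34157 counted in the rebastinib (Reb) experiment. All 41 passed a filter of a mean of 1 CPM (read counts scaled to library size) over the 3 libraries of each experiment, as did 15295 and 15655 genes in all. Every library came from MDA-MB-231, a line of human breast cancer cells of the triple-negative type. In the first experiment, stable lines made with lentivirus and cell sorting carried a scramble shRNA or a hairpin RNA against the kinase CDK16, CDK16-sh1 or CDK16-sh2. In the second, cells without a hairpin were kept for 48 h with the vehicle DMSO or with Reb at 1 or 5 μM, Reb being a multi-target kinase inhibitor that also acts on CDK16. Each condition had 1 library, so no difference between conditions has a replicate check, and each hairpin was represented by a single sorted line.

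Ribosomes are assembled in the nucleolus, where RNA polymerase I transcribes the precursor of the large ribosomal RNAs. Small nucleolar RNAs (snoRNAs) guide the chemical modification of that precursor within protein complexes of the box C/D type, which methylate ribose, and of the box H/ACA type, which convert uridine to pseudouridine. Assembly factors then fold and cut the precursor into the small and the large subunit, and the genes for many of these factors are known to be driven by the transcription factor MYC. The members were ordered here by role: 3 box C/D proteins, 4 box H/ACA proteins, 4 scaffold and chaperone proteins, 5 RNA polymerase I subunits and factors, 11 small subunit factors, 10 large subunit factors and 4 other nucleolar regulators.

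Total counts ranged from 25838443 to 50303269 per library. The targeted gene CDK16 had 3223 counts with the scramble hairpin, 1360 with CDK16-sh1 and 846 with CDK16-sh2 (log2 fold changes -1.52 and -1.82). CDK16 had 4996, 4609 and 2797 counts in DMSO, 1 μM and 5 μM Reb. Its log2 fold changes at the 2 doses were -0.14 and 0.27, but -0.09 and -0.42 when scaled to library totals alone. The mesenchymal marker VIM had at least 34429 counts in every library, whereas ESR1, PGR, CDH1 and PTPRC had at most 53. Of other epithelial markers, KRT8 had 16235 to 60961 counts, KRT18 6021 to 19694 and EPCAM 125 to 408. KRT14 had 26 to 151 counts and KRT5 at most 23. ERBB2, a receptor gene that is low in this type of tumor, was not absent and had 996 to 3396 counts. Transcripts of the mitochondrial genome took 16.4% of the counts at 5 μM Reb and 16.2% in CDK16-sh2, against 7.19% to 11.3% in the other libraries, and their part in the differences below was not tested.

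The 41 members together took 1.80% of all counts in DMSO (95% Wilson interval 1.79% to 1.80%), 1.73% at 1 μM Reb (1.73% to 1.73%) and 1.47% at 5 μM Reb (1.47% to 1.47%). In the knockdown experiment they took 1.29% in scramble (1.28% to 1.29%), 1.30% in CDK16-sh1 (1.30% to 1.30%) and 1.44% in CDK16-sh2 (1.43% to 1.44%). All intervals in the text cover counting error only, because each condition had 1 library. They may be too narrow even for that, as the reads carry no molecular identifiers and several may stem from 1 molecule. NCL (nucleolin) and NPM1 (nucleophosmin), both abundant nucleolar RNA-binding proteins, made up most of the members' share, with 1.09% of the counts in DMSO and 0.885% at 5 μM Reb.

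Levels were compared between genes as the authors' RPKM, which divides counts by gene length and library total. The median level of the members was 33.7 RPKM in scramble and 34.1 RPKM in DMSO, against 4.56 and 3.99 RPKM over all expressed genes. NPM1 was highest in both controls, at 776 RPKM in scramble and 1069 RPKM in DMSO, and NCL came next at 547 and 989 RPKM. The phosphoprotein NOLC1, which accompanies snoRNA complexes, ranked after them with 130 RPKM in scramble and 183 RPKM in DMSO. At the low end stood UTP15, a small subunit factor, at 4.06 RPKM in scramble, and POLR1B, the second largest subunit of RNA polymerase I, at 2.77 RPKM in DMSO. At 5 μM Reb the median level of the members was 14.3 RPKM, against 2.36 RPKM over all expressed genes, and NOP56 ranked after NPM1 and NCL at 256 RPKM.

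**Figure D1:**
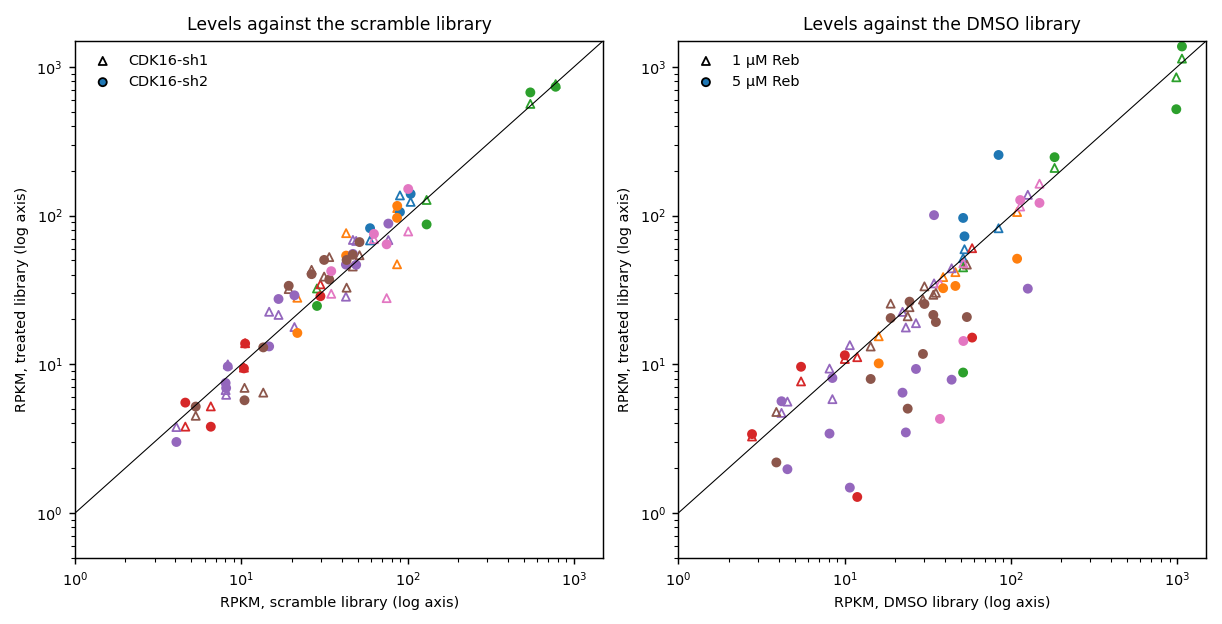
Each point is a member gene, placed by its RPKM in the control library (x axis, log scale) and in a treated library of the same experiment (y axis, log scale), with colors for the 7 roles as in the plot of log2 fold changes. The members lie near the diagonal at 1 μM Reb and spread away from it at 5 μM Reb, where POLR1A lay below it with 11.9 RPKM in DMSO and 1.28 RPKM at 5 μM, and NOP56 above it with 84.3 and 256 RPKM.

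Log2 fold changes against the control of the same experiment were calculated from TMM-scaled CPM, which sets the middle of all genes near 0. Members that differed by at least 2-fold were counted. The quartiles of all expressed genes at 5 μM Reb were -1.10 and 0.94, so many genes lay far from 0 there. At 5 μM Reb, 11 of the 41 members were at least 2-fold lower than in DMSO and 8 were at least 2-fold higher. Among all expressed genes 27.2% were lower and 23.6% higher by that much, so the share of members past 2-fold lay near or below the background in both directions. At 1 μM Reb no member reached 2-fold, where 1.92% of all genes were lower and 1.28% higher. For CDK16-sh1, 2 members were at least 2-fold lower and 0 higher, with 6.86% and 4.33% of all genes. For CDK16-sh2, 0 members were lower and 1 was higher, with 7.62% and 2.2% of all genes.

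The share of members above their control departed most from the background in CDK16-sh2. There, 33 of the 41 members lay above scramble, where 51.4% of all genes did, and the members' median log2 fold change was 0.42 against 0.02 for all genes. In CDK16-sh1, 23 members lay above scramble with a background of 49.9%, and the medians were 0.07 and -0.00. At 1 μM Reb, 15 members lay above DMSO with a background of 50.2%, and the medians were -0.05 and 0.00. With library totals 21 members lay above it, where the median of all genes was 0.05 and their share above was not counted. At 5 μM Reb, 20 members lay above DMSO with a background of 48.3%, and the medians were -0.14 and -0.07. The standard deviation of log2 fold change over the members was 0.23 at 1 μM Reb and 1.25 at 5 μM Reb, against 0.45 and 1.59 over all genes.

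**Figure D2:**
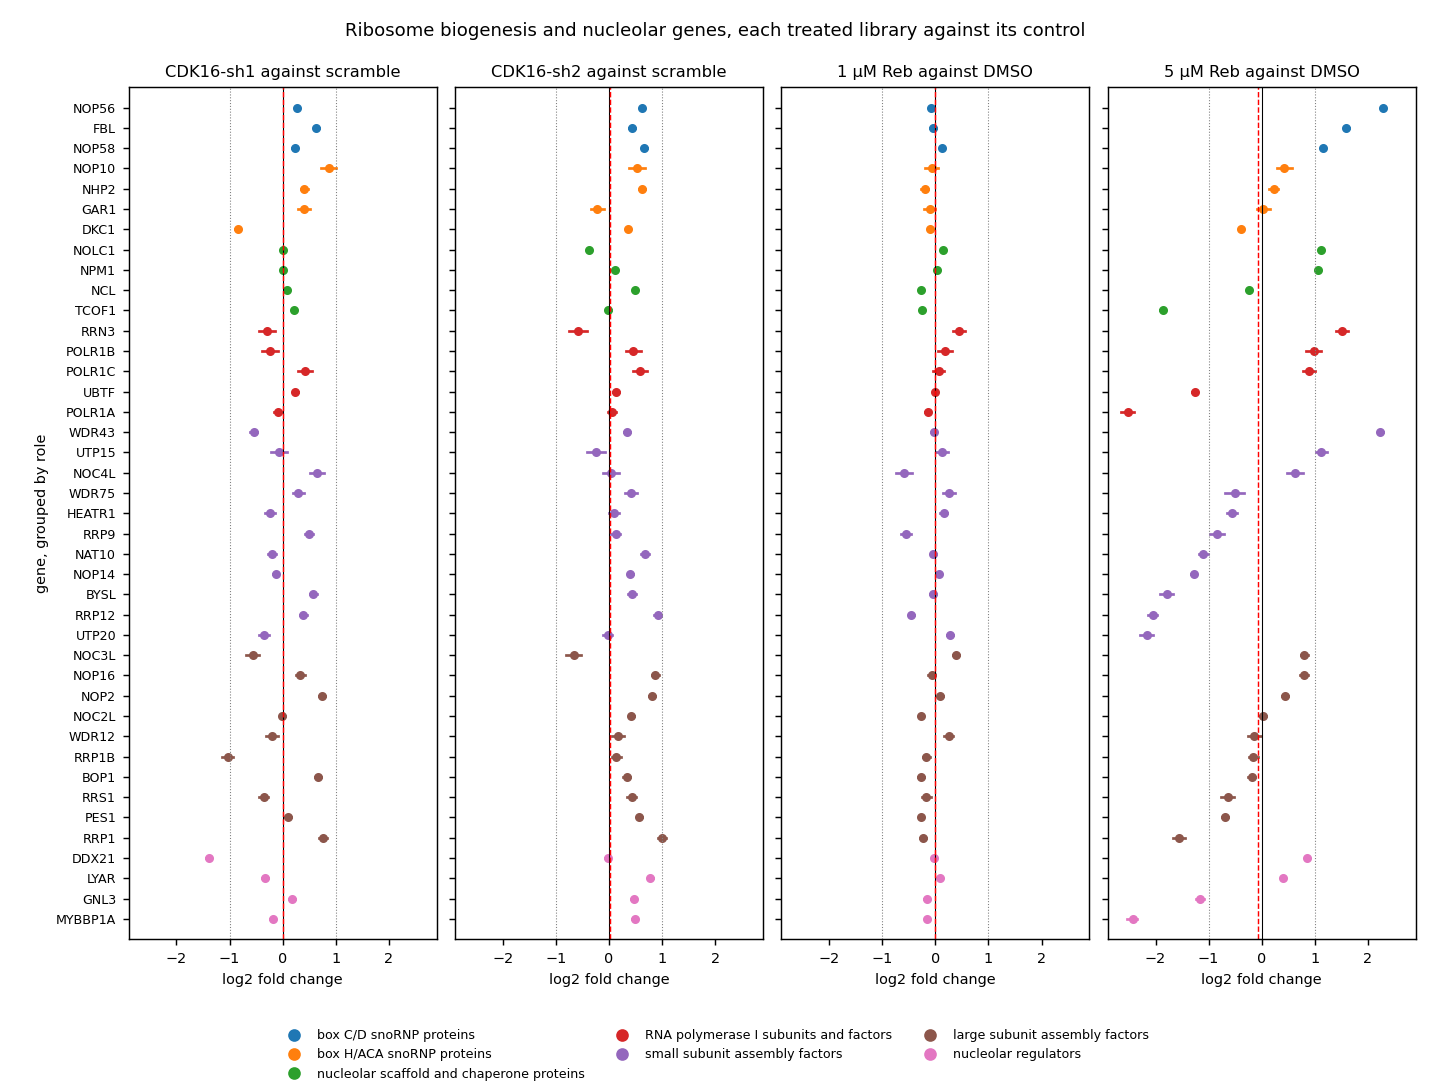
The x axis shows the log2 fold change of each of the 41 members in the 4 comparisons, with colors for the roles, horizontal bars for the 95% counting interval, dotted lines at 2-fold and a red dashed line at the median of all expressed genes. At 5 μM Reb the values run from -2.53 for POLR1A to 2.29 for NOP56, while at 1 μM Reb they stay between -0.58 and 0.44.

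The 3 box C/D proteins among the members were all at least 2-fold higher at 5 μM Reb with TMM scaling, where 23.6% of all genes were. Over 9 settings of scaling, filtering and trend removal, NOP56 was so in 9, FBL in 7 and NOP58 in 4. NOP56, a core protein of the complex that lies on chromosome 20 (GRCh38, chr20:2652145-2658393), had 22884 counts in DMSO, 21889 at 1 μM and 51957 at 5 μM Reb. Its log2 fold change was 2.29 at 5 μM (95% counting interval 2.27 to 2.31) and -0.09 at 1 μM (-0.11 to -0.06), so that it stood above DMSO at the higher dose and slightly below it at the lower. FBL (fibrillarin), the methyltransferase of the complex, had 5664, 5569 and 7918 counts, and its log2 fold change at 5 μM was 1.59 (1.54 to 1.64). NOP58, the partner of NOP56, had 8723, 9665 and 9005 counts and a log2 fold change of 1.15 (1.11 to 1.20) at 5 μM. The counts of NOP58 were close in the 3 libraries, of which the 5 μM library had the smallest total. Scaled to library totals alone, the log2 fold changes of the 3 genes were 1.60, 0.90 and 0.46, all still above DMSO.

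The 4 box H/ACA proteins stayed within 2-fold at 5 μM Reb with TMM scaling, although DKC1 passed 2-fold with library totals (-1.09). DKC1 (dyskerin), the pseudouridine synthase, had 23037 counts in DMSO, 21918 at 1 μM and 8110 at 5 μM Reb, with a log2 fold change of -0.40 (-0.43 to -0.36) at 5 μM. Its partners gave 0.42 for NOP10, 0.23 for NHP2 and 0.03 for GAR1, and all 3 lay below DMSO when scaled to library totals (-0.27, -0.46 and -0.66). The highest of the 4, NOP10, lay 0.73 below the lowest box C/D protein, NOP58, on the log2 scale. Such a difference between members does not depend on how a library is scaled.

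Scaffold proteins of the nucleolus split at 5 μM Reb. NOLC1 had 36562 counts in DMSO, 40977 at 1 μM and 36924 at 5 μM Reb, a log2 fold change of 1.12 (1.10 to 1.14) at 5 μM, and NPM1 had 205869, 214945 and 197888 counts, a log2 fold change of 1.05 (1.04 to 1.06). Both stood above DMSO by less than 2-fold when scaled to library totals (0.43 and 0.36). TCOF1 (treacle), a cofactor of RNA polymerase I transcription, was the low member of this group with 29261, 24965 and 3733 counts and a log2 fold change of -1.86 (-1.91 to -1.81). NCL had 344544, 291249 and 135473 counts, which gave -0.27 at 1 μM and -0.24 at 5 μM. NPM1 shares sequence with processed pseudogenes, 30 of which were listed in the Reb table with 4278, 3782 and 3216 counts in all, a small number beside its own.

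Genes of RNA polymerase I itself included the lowest member of all. POLR1A, the largest subunit (chr2:86020216-86106155), had 8094 counts in DMSO, 7441 at 1 μM and 651 at 5 μM Reb, a log2 fold change of -2.53 (-2.65 to -2.41) or 5.76-fold lower. UBTF, the factor that binds the promoter of the ribosomal RNA genes, had 20553, 20825 and 3977 counts and a log2 fold change of -1.26 (-1.31 to -1.21). In the other direction stood RRN3, the factor that brings the polymerase to that promoter, with 1142, 1572 and 1504 counts, 2.84-fold higher at 5 μM (log2 interval 1.39 to 1.62). The subunits POLR1B, with 882, 1020 and 807 counts, and POLR1C lay short of 2-fold, at 0.98 (0.84 to 1.12) and 0.89 (0.78 to 1.00). The largest and the second largest subunit of the same enzyme therefore differed in opposite directions, by 3.50 on the log2 scale.

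Small subunit factors lay at both ends at 5 μM Reb, with 2 of 11 at least 2-fold higher and 5 lower. WDR43, a component of the early small subunit particle (chr2:28894643-28948222), had 7163 counts in DMSO, 7129 at 1 μM and 15652 at 5 μM Reb, and a log2 fold change of 2.24 (2.20 to 2.28) at 5 μM. UTP15, which belongs to the same subcomplex of that particle, followed with 1325, 1468 and 1341 counts and a log2 fold change of 1.12 (1.01 to 1.24). HEATR1 and WDR75 are also of this subcomplex and lay below DMSO, at -0.56 (-0.65 to -0.46) and -0.51 (-0.68 to -0.34), and of its parts outside the members UTP4 stood at 0.24 and NOL11 at -1.65. At the other end, UTP20 had 5415, 6647 and 558 counts, so that it stood above DMSO at 1 μM (0.27, 0.22 to 0.32) and 4.49-fold below it at 5 μM (-2.17, -2.30 to -2.04). RRP12, an export factor of the particle, had 10008, 7437 and 1116 counts and lay below DMSO at both doses, at -0.45 (-0.50 to -0.41) and -2.06 (-2.15 to -1.97). BYSL (bystin), with 4974, 4904 and 666 counts, had a log2 fold change of -1.79 (-1.91 to -1.68) at 5 μM. The lower group was completed by NOP14 at -1.28 and the RNA acetyltransferase NAT10 at -1.10. RRP9, HEATR1, WDR75 and NOC4L stayed within 2-fold, between -0.84 and 0.63. WDR43 and UTP20 stood 4.40 apart at 5 μM and -0.30 apart at 1 μM on the log2 scale, WDR43 minus UTP20.

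Among the 10 large subunit factors, 1 was past 2-fold at 5 μM Reb. RRP1, a factor of early large subunit assembly, had 5118 counts in DMSO, 4409 at 1 μM and 804 at 5 μM Reb, with a log2 fold change of -1.56 (-1.67 to -1.45) at 5 μM. Its paralog RRP1B had 4155, 3743 and 1726 counts and a log2 fold change of -0.16 (-0.24 to -0.08). The 3 members of the PeBoW complex, which acts in the processing of large subunit RNA, lay below DMSO, with PES1 at -0.70 (-0.75 to -0.64), BOP1 at -0.19 and WDR12 at -0.14, although BOP1 was above 0 when trends on GC content and length were removed. PES1 had 12451, 10532 and 3563 counts. NOC3L, with 4245, 5633 and 3436 counts, and NOP16, with 3535, 3417 and 2840, had the highest values of this group, at 0.80 and 0.79. The RNA methyltransferase NOP2, with 7116, 7728 and 4487 counts, stood at 0.44. NOP2 lay below DMSO when scaled to library totals, at -0.25.

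The 4 other nucleolar regulators gave 2 members lower by at least 2-fold at 5 μM Reb and none higher. MYBBP1A, a nucleolar protein that binds transcription factors (chr17:4538897-4555631), had 11678 counts in DMSO, 10696 at 1 μM and 1001 at 5 μM Reb, a log2 fold change of -2.43 (-2.53 to -2.34) at 5 μM and the second lowest of all members. GNL3 (nucleostemin), a nucleolar GTPase, had 8639, 7832 and 1790 counts and a log2 fold change of -1.16 (-1.24 to -1.09). The helicase DDX21 had 28713, 28508 and 24046 counts and a log2 fold change of 0.85 (0.83 to 0.88). LYAR stood at 0.40, but at -0.29 with library totals. Just outside the 2-fold threshold at 5 μM were POLR1B at 0.98 and RRP9 at -0.84, and just inside it were NPM1 at 1.05 and NAT10 at -1.10.

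Which members counted as 2-fold changed with the scaling of the 5 μM library, because the median of all genes moved by -0.69 on the log2 scale when library totals replaced TMM. With library totals, 17 members were at least 2-fold lower and 2 higher, where 43.4% of all genes were lower and 11.7% higher. The members' median was then -0.83, against -0.75 for all genes. With library totals 13 of the 41 lay above DMSO, and the share of all genes above it was not counted. Over 9 settings of scaling, filtering and trend removal, 7 members were at least 2-fold lower in every one (TCOF1, RRP12, BYSL, UTP20, POLR1A, GNL3 and MYBBP1A) and 2 were at least 2-fold higher in every one (NOP56 and WDR43). Across the same settings 13 members were above DMSO throughout and 18 below it throughout, which leaves 10 whose direction at 5 μM depended on the setting. The share of all genes that met these rules in every setting was not counted. In single settings 25.6% to 43.4% of all genes were at least 2-fold lower and 11.1% to 25.2% higher.

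**Figure D3:**
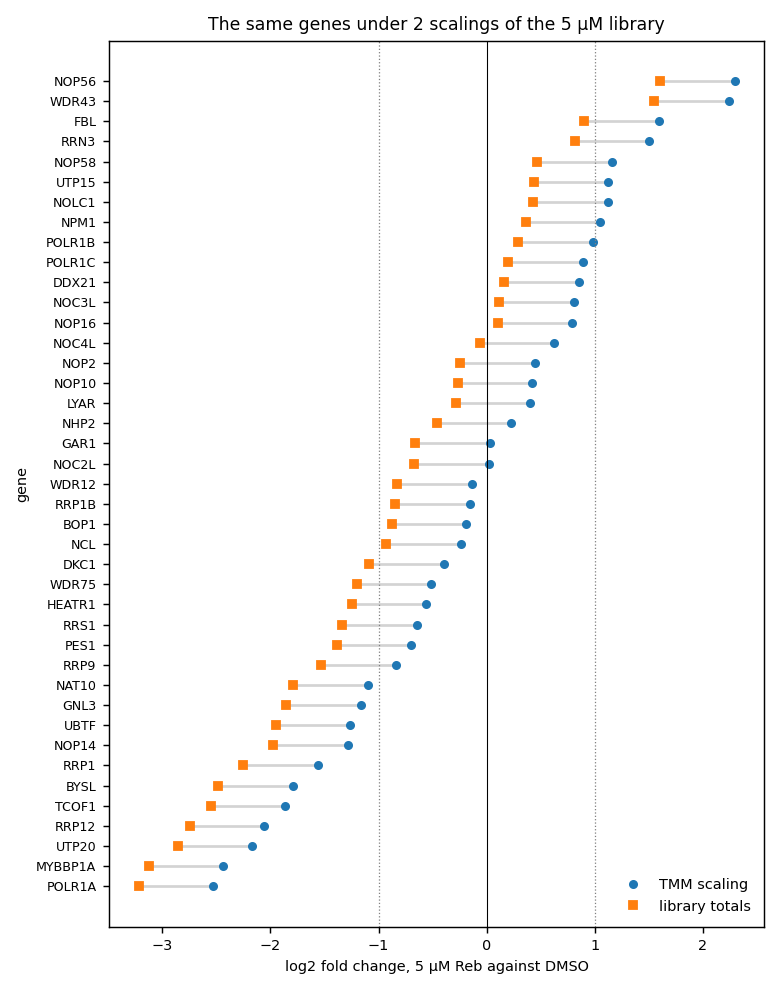
The x axis shows the log2 fold change of each member at 5 μM Reb with TMM scaling and with scaling to library totals. All 41 values shift down together under library totals, so that 7 members that lay above DMSO with TMM lie below it.

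At 1 μM Reb the members stayed close to DMSO, and all 41 lay within 1.5-fold. The lowest were NOC4L, with 861 counts in DMSO, 583 at 1 μM and 617 at 5 μM (-0.58 at 1 μM, -0.74 to -0.43), and RRP9, a protein bound to the box C/D snoRNA U3, with 2131, 1471 and 552 counts (-0.56, -0.66 to -0.46). The highest was RRN3 at 0.44 (0.33 to 0.55), followed by NOC3L at 0.38 (0.33 to 0.44). NOC4L stood above DMSO at 5 μM (0.63, but -0.06 with library totals), RRP9 below it (-0.84), and NOC3L above it (0.80), as did RRN3. Both doses share the DMSO library, so values of a gene at the 2 doses are not independent.

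CDK16-sh1 had 2 members at least 2-fold lower than scramble, in all 9 settings, and these were not so in CDK16-sh2. In single settings 4.63% to 8.85% of all genes were that much lower in CDK16-sh1, and the share in every setting was not counted. DDX21 (chr10:68956128-68985073), a helicase that binds ribosomal RNA and snoRNAs, had 9688 counts with the scramble hairpin, 4464 with CDK16-sh1 and 8843 with CDK16-sh2. Its log2 fold changes were -1.39 (-1.45 to -1.34) and -0.02 (-0.07 to 0.02). RRP1B had 2013, 1186 and 2056 counts, with -1.04 (-1.14 to -0.94) and 0.14 (0.05 to 0.23). DKC1 came next in CDK16-sh1, with 9369, 6315 and 11152 counts, and stood below scramble in one hairpin line (-0.85) and above it in the other (0.36). These 3 genes differed between hairpins directed at the same kinase, by more than counting error, and with 1 library each this difference has no test.

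The highest members in CDK16-sh1 were NOP10 at 0.87 (0.73 to 1.01), RRP1 at 0.76 and NOP2 at 0.74. NOP10 had 610 counts with the scramble hairpin, 1348 with CDK16-sh1 and 819 with CDK16-sh2. In CDK16-sh2 the highest were RRP1 at 1.00, RRP12 at 0.91 (3681, 5849 and 6440 counts) and NOP16 at 0.87 (2324, 3553 and 3958 counts). RRP1 had 2113 counts with the scramble hairpin, 4349 with CDK16-sh1 and 3938 with CDK16-sh2, where its interval of 0.93 to 1.08 spanned the 2-fold threshold. It passed 2-fold in 3 of the 9 settings, and RRP12 passed it in 2 others, those with the trends on GC content and length removed. NOP2 had 3198, 6461 and 5199 counts, and was the member after RRP1 with the next highest value common to both lines, at 0.74 and 0.81. The lowest members in CDK16-sh2 were NOC3L at -0.67 (-0.81 to -0.53), RRN3 at -0.58 (-0.76 to -0.41) and NOLC1 at -0.38, and NOC3L and RRN3 also lay below scramble in CDK16-sh1, at -0.56 and -0.30. NOC3L had 1203, 989 and 702 counts, RRN3 702, 691 and 434, and NOLC1 13328, 16155 and 9515, so that all 3 were lowest in CDK16-sh2.

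By role, the values of CDK16-sh2 were above scramble for 3 of 3 box C/D proteins, 3 of 4 box H/ACA proteins, 9 of 11 small subunit factors, 9 of 10 large subunit factors, 4 of 5 RNA polymerase I genes, 3 of 4 other regulators and 2 of 4 scaffold and chaperone proteins. NOP56 had 14524 counts with the scramble hairpin, 21334 with CDK16-sh1 and 20767 with CDK16-sh2, with log2 fold changes of 0.28 and 0.62. NCL had 97874, 124877 and 128363 counts, with 0.07 and 0.50. PES1 had 6040, 7877 and 8308 counts, with 0.11 and 0.57. Scaled to library totals the members' median in CDK16-sh2 was 0.22, with 25 members above scramble, and the median of all genes moved by -0.20. The share of all genes above scramble was not counted with that scaling. The scramble library serves both hairpins, so a value that was low or high there enters both comparisons.

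With both treated libraries taken as 1 group against their control, edgeR's quasi-likelihood test called no member in either experiment at an adjusted p of 0.05 and 2-fold. For the hairpins, 0 of 15295 genes were called (0%), with 382 genes and 0 members at an unadjusted p under 0.05, and DESeq2 called 0 as well, with 233 genes at that p. For Reb, 12 of 15655 genes (0.0767%) and 0 members were called, also 0 members with DESeq2, and the smallest unadjusted p of a member was 0.268 by edgeR's quasi-likelihood test, against 0.0968 for the hairpins. This test counts the difference between the doses or the hairpins as spread, and the members that were far from DMSO at 5 μM were near it at 1 μM. Dose was then entered as a linear term instead, as log2 of the dose in μM plus 1, with 1 residual degree of freedom. With it 10 members were called where 24.5% of all genes were, so the members' share was near the background. These were NOP56, WDR43, FBL and RRN3 on the higher side and POLR1A, MYBBP1A, RRP12, UTP20, BYSL and TCOF1 on the lower side. The spread in this fit is the departure of single libraries from a line in dose, not a spread between replicates. WDR43, for example, stood at -0.03 at 1 μM and 2.24 at 5 μM, so its fitted 2.34 rests on the 5 μM library.

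Base composition moved with the values of the members. The GC content of their longest annotated transcripts had a median of 50.6%, against 48.5% over all expressed genes. Their exonic length had a median of 4251 bases, against 4319. Across the 41 members, Pearson's r between GC content and log2 fold change was 0.49 in CDK16-sh1, 0.38 in CDK16-sh2, -0.77 at 1 μM Reb and -0.38 at 5 μM Reb. Across all expressed genes it was 0.44, 0.12, -0.30 and -0.20. These are descriptions across genes, which share their libraries and are not independent replicates. At 1 μM Reb the GC-rich RRP9, RRP12 and NOC4L stood at the low end and the GC-poor NOC3L, UTP20 and RRN3 at the high end. At 5 μM the GC-poor UTP20 (42.3%) and WDR43 (40.3%) took opposite ends. After removal of the trend on GC content and length, 8 members were lower and 6 higher at 5 μM Reb, where 25.7% of all genes were lower and 22.2% higher.

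**Figure D4:**
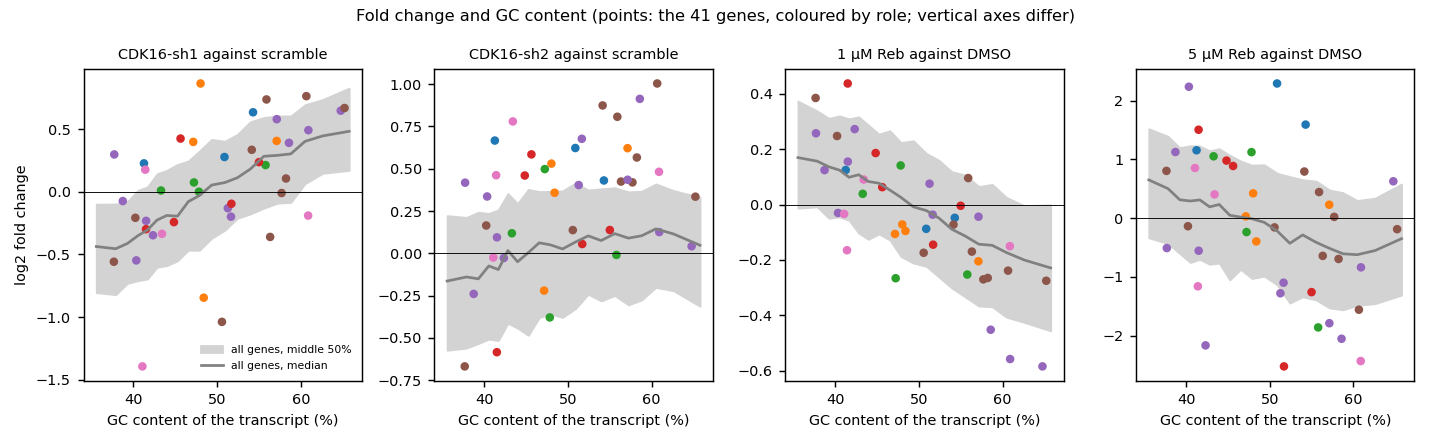
Each point is a member, placed by the GC content of its longest annotated transcript in percent (x axis) and its log2 fold change (y axis). There is 1 panel for each of the 4 comparisons, with colors for the roles as in the plot of log2 fold changes. The members slope upward in both hairpin panels (r 0.49 and 0.38) and downward at 1 μM Reb (r -0.77), and spread widely at 5 μM Reb (r -0.38).

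Other genes of the same pathways were taken from lists that exclude the members. In CDK16-sh2, 39 of 47 other small subunit factors and 39 of 49 other large subunit factors lay above scramble, with medians of 0.39 and 0.44. In CDK16-sh1 their medians were -0.01 and 0.14. At 5 μM Reb, 15 of the 47 small subunit factors were at least 2-fold lower and 10 higher, and 10 of the 49 large subunit factors were lower and 14 higher, beside background shares of 27.2% and 23.6%. The 19 other genes listed for RNA polymerase I held 3 lower and 6 higher, with POLR1D, a subunit shared with RNA polymerase III, at 2.48 and POLR1E at -1.72. That list also held subunits shared with RNA polymerase II, such as POLR2E, and genes such as BAZ2A and DDX11, which are not subunits. The 15 genes listed for the RNA exosome, which trims ribosomal RNA, held 4 lower and 3 higher, with a median of -0.64. The list also held the cofactors MTREX, C1D and MPHOSPH6 and the separate nuclease XRN2. A nuclear nuclease of the exosome, EXOSC10, had 8257 counts in DMSO and 835 at 5 μM, a log2 fold change of -2.20. Another nuclease of the exosome, DIS3, stood at 0.36, or at -0.33 with library totals.

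MYC, whose protein is known to act on many of the members, had 2853 counts with the scramble hairpin, 11280 with CDK16-sh1 and 6340 with CDK16-sh2, with log2 fold changes of 1.71 (1.65 to 1.77) and 1.26 (1.19 to 1.32). In the Reb experiment MYC had 4956, 2890 and 5973 counts, with -0.80 (-0.87 to -0.74) at 1 μM and 1.38 (1.32 to 1.43) at 5 μM. MYC was higher in CDK16-sh1 than in CDK16-sh2, while the members' median was 0.07 in the first and 0.42 in the second. The 10 genes of the MYC network were MYC itself, MAX, MXD1, MXD3, MXD4, MXI1, MNT, MLX, MLXIP and MGA. Their median was 1.03 at 5 μM Reb. Of them 1 was lower and 5 were higher by at least 2-fold, where 27.2% and 23.6% of all genes were.

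The MYC and MAX dimer binds the E-box CACGTG, a palindrome that reads the same on both strands, and the promoters of the members were searched for these 6 letters. RefSeq promoter windows of 300 bases, from 250 before to 50 after an annotated start (GRCh38.p14), were matched for 34 of the 41 members, and CACGTG was present in at least 1 window of 16 of them (47.1%). It was present in 12.6% of 9989 expressed genes with a window and in 8.77% of all 27305 genes with one. A match is a description of letters, not a binding site. The following stretches, read in the direction of the gene, are shown because their genes differed at 5 μM Reb in opposite directions, or not past 2-fold, with the same motif near the start. The motif is in capitals.
UTP20, chr12:101280070-101280125, plus strand: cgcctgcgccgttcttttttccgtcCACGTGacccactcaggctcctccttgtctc
NAT10, chr11:34105589-34105644, plus strand: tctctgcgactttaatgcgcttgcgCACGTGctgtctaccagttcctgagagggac
DDX21, chr10:68956591-68956646, plus strand: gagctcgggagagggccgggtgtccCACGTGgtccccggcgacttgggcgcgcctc
NOP10, chr15:34343117-34343172, minus strand: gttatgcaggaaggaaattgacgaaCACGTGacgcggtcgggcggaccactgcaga

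UTP20 and NAT10 were lower at 5 μM Reb (-2.17 and -1.10) and DDX21 and NOP10 stood above DMSO (0.85 and 0.42), with NOP10 below it under library totals. Among the 16 members with the motif, 6 were at least 2-fold lower and 2 higher (WDR43 and FBL), with a median of -0.33. Among the 18 without it, 3 were lower and 4 higher, with a median of 0.12. Over all expressed genes with a window, 27.3% of those with the motif were lower and 22.0% higher, and 28.3% and 21.9% of those without it. In CDK16-sh2 the medians were 0.43 with the motif and 0.39 without it, and in CDK16-sh1 -0.01 and 0.04.

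Several members carry snoRNA genes within their introns or exons, which the tables counted as symbols of their own. In 6 hosts (NOP56, NOP58, DKC1, NCL, WDR43 and GNL3) there were 15 such symbols in the knockdown table and 14 in the Reb table, of which 5 and 7 had more than 20 counts in any library. These libraries were made from messenger RNA, so short mature snoRNAs are not measured well, and reads from a host transcript that spans the snoRNA are counted there too. Box C/D snoRNAs carry a pair of short conserved boxes on which NOP56, NOP58 and FBL assemble. The sequences of 3 of them, from the GENCODE 29 transcripts, are shown because they lie in the 2 members that were highest at 5 μM Reb, with the C box TGATGA and the last CTGA, the D box, in capitals.
SNORD110 in NOP56, chr20:2654212-2654286: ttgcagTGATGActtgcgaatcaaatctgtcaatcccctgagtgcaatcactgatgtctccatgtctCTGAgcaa
SNORD57 in NOP56, chr20:2656939-2657010: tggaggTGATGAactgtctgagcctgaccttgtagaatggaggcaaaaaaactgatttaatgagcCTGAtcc
SNORD53 in WDR43, chr2:28927067-28927144: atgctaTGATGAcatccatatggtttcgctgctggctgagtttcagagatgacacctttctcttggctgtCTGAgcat

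SNORD110 had 89 counts in DMSO, 96 at 1 μM and 544 at 5 μM Reb, a log2 ratio of 3.72 (3.39 to 4.06) at 5 μM, above the 2.29 of its host NOP56. SNORD86 and SNORD57, also in NOP56, had 1868, 1874 and 1735 counts and 559, 445 and 603 counts, with log2 ratios of 1.00 and 1.22, below the host. All 3 lie wholly within annotated exons of NOP56 on the same strand, so reads of the host and of the snoRNA cannot be told apart. SNORD53, which lies in an intron of WDR43, had 1, 14 and 68 counts, a ratio of 147 with a counting interval of 25.4 to 5874 at 5 μM. SNORD92, in the same host, had 0, 0 and 7 counts. SNORD19B in GNL3, a host that was lower, had 37, 39 and 5 counts and a log2 ratio of -1.78 (-3.48 to -0.43). In the knockdown experiment SNORD110 had 107, 143 and 108 counts, and SNORD53 had 1, 1 and 3. SNORA36A in DKC1 went the other way from its host, with 1, 4 and 32 counts and a ratio of 69.0 (11.5 to 2809) at 5 μM, and SNORA56 in the same gene had 18, 27 and 9 counts. Those named so far are the 7 with more than 20 counts in a Reb library and SNORD92.

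Some members share exonic bases with a gene on the other strand, and the strand setting of the counting is not given in the sources used here. The shared part was 27.4% of NHP2, 21.6% of HEATR1, 19.95% of NOP16, 17.4% of POLR1C and 17.1% of NOP14. RRS1 shares 11.4% of its bases with ADHFE1 on the same strand. The counts of these 6 members, which have the largest shared parts, may therefore hold reads of the neighbor. None of the 6 was among the 9 members past 2-fold in every setting at 5 μM Reb. Of those 9, however, NOP56 (7.5%), RRP12 (6.1%), GNL3 (3.9%) and MYBBP1A (2.2%) also share bases with other genes on either strand.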

How the data were processed

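MDA-MB-231 cells were profiled by RNA-seq in 6 libraries, 1 per condition, in 2 experiments. The submitters' processing notes name Trimmomatic, featureCounts, Subread 1.5.1 and GRCh38. The aligner and annotation are not given in the sources used here. The authors deposited whole-number read counts per gene symbol without normalization, and RPKM values in which the authors divided these counts by gene length and library total. Counts as deposited gave the main values. Log2 fold changes came from edgeR 4.0.16 (R 4.3.3), using TMM-scaled CPM, a prior count of 2 and only genes averaging 1 CPM or more. Each interval is an exact 95% (Clopper-Pearson) interval for how a gene's counts divide between treated and control, put on the log2 scale. Both treated libraries were tested against their control with edgeR's quasi-likelihood test (Benjamini-Hochberg adjusted p of at most 0.05 and at least 2-fold). Alternatives were DESeq2 1.42.0, library totals, RPKM with 0.1 added, and no filter or at least 10 CPM. Others were a prior count of 0.5, a 1.5-fold threshold, and trends on GC content, length and gene span removed. Dose was also entered as a linear term, as log2 of the dose in μM plus 1. The members, role groups and lists were chosen with earlier results of these data known. The members named are, in each comparison or experiment, those with the largest differences in either direction, those with the largest differences shared by both treated libraries and the most abundant, and others were named after their values were seen.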

Additional observations from a re-analysis of the deposited data

How the results depend on the processing

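With 1 library per condition, no library could be left out, and no value has an error between replicates. No paired analysis was possible because the libraries carry no replicate numbers shared between groups. Depth limits single members little, as the half-width of the counting interval was at most 0.18 on the log2 scale. At a 1.5-fold threshold CDK16-sh1 had 3 lower and 6 higher members (18.8% and 16.5% of all genes). In CDK16-sh2, the 1 higher member became 0 with DESeq2 size factors, library totals, the authors' RPKM and a mean of at least 10 CPM, and the members' median of 0.42 became 0.22 with library totals and with RPKM. At a 1.5-fold threshold CDK16-sh2 had 2 lower and 10 higher members (16.8% and 11.04% of all genes). At 5 μM Reb, the 11 lower and 8 higher members became 17 and 2 with library totals and with RPKM, and the median of -0.14 became -0.83 and -0.80. Without a filter on low counts 4 members were higher with a median of -0.34, and with a mean of at least 10 CPM 5 were higher with a median of -0.26. With trends on GC content, length and span removed, a choice made after the data were seen, 7 were lower and the median turned to 0.07. At a 1.5-fold threshold 14 were lower and 14 higher (36.7% and 33.1% of all genes). With dose as a linear term 10 members were called, against 0 with the doses pooled. At 1 μM Reb no member passed 2-fold in the alternatives run, or 1.5-fold with TMM scaling, and the median of -0.05 became 0.00 with library totals and RPKM, with 21 members above DMSO in place of 15. For the scalings and filters the difference follows from their construction, since each sets another level as 0, and for the trend removal the cause was not tested. Of the 96 values of the 24 named members (4 each), from 0 with a prior count of 0.5 to 73 with the trends on GC content, length and span removed moved by more than their counting interval, and none that was past 2-fold changed its direction.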
